A study of Mus musculus with 20 samples.

Results

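The 39 protein-coding genes of the mouse Hox clusters are described here across sorted stromal cells of fat. They were taken by symbol from a table of 54304 genes: Hox followed by the cluster letter a, b, c or d and the paralog number. The Hoxa cluster holds 11 of them, Hoxb 10, Hoxc 9 and Hoxd 9. Of the 39, 26 had enough values above 0 to be tested, 12 were listed at 0 in all 20 libraries, and Hoxb1 was above 0 in 1 library alone.

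RNA was sequenced from 2 populations of PDGFRβ-positive cells sorted out of male gonadal white fat. The fibro-inflammatory progenitors (FIPs) were taken as LY6C-positive cells, and adipogenic precursor cells (APCs) as cells with neither LY6C nor CD9. Blood cells carrying CD45 and endothelial cells carrying CD31 were gated out of both. The 4 groups of 5 libraries were FIPs of Mural-Zfp423 transgenic mice, APCs of Mural-Zfp423 transgenic mice, FIPs of control mice and APCs of control mice. All mice were 8 weeks old in the labels, were kept at 30 °C and were fed for 1 month on food with 60% of its energy as fat; their strain was not given in the sources used here. The name of the line says that the transgene puts Zfp423, a transcription factor, into mural cells, which lie around small vessels. The labels do not name its driver. No group was labelled as mural cells, and whether the sorted PDGFRβ-positive cells include mural cells was not tested. Each library pools RNA of 2 mice, and since there were 10 mice per genotype, FIP pools and APC pools of the same genotype share mice.

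Hox genes encode homeodomain transcription factors that give cells along the head-to-tail axis of the embryo their positional identity. Within a cluster the genes are lined up in the order in which they are used along that axis, and genes with the same paralog number in different clusters descend from a common ancestor. Low numbers are used toward the head and high numbers toward the tail, the limbs and the genital tract. Adult stromal cells, fat precursors among them, keep a pattern of active and silent Hox genes that depends on where in the body they came from. The proteins bind DNA together with partners of the TALE class (Pbx, Meis and Pknox), and Polycomb and Trithorax complexes keep the clusters silent or active.

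The libraries were of similar depth: 1 CPM (counts scaled to library size) stood for an estimated 6.6 to 8.51 reads, so the members with the lowest levels rest on few reads. Pdgfrb had group means between 8.94 and 9.44 log2 CPM. Ly6c1 averaged 7.24 ± 0.11 log2 CPM (SD, n = 5 in this and the following means) in transgenic-labelled FIPs against 5.10 ± 0.16 in transgenic-labelled APCs, and 7.34 ± 0.05 in control FIPs against 5.64 ± 0.12 in control APCs. Zfp423 itself was not called between labels in either population: it averaged 5.53 ± 0.04 in transgenic-labelled FIPs against 5.47 ± 0.12 in control FIPs, and 4.70 ± 0.27 in transgenic-labelled APCs against 4.97 ± 0.17 in control APCs. The libraries are therefore named by their label, and each genotype comparison below is a comparison of labels. Genes of the gated-out markers were still measured, with group means between 3.66 and 4.69 log2 CPM for Ptprc (CD45) and between 5.98 and 6.61 for Pecam1 (CD31). In bulk RNA of this kind, fewer cells of a type and less RNA per cell cannot be told apart.

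Hox messenger RNA came mostly from genes of paralog numbers 4 to 8. All 15 genes of paralog numbers 4 to 8 were tested, against 5 of 8 genes of numbers 1 to 3, 6 of 7 genes of numbers 9 and 10, and none of the 9 genes of numbers 11 to 13, all of which were listed at 0 in all 20 libraries. These last were Hoxa11, Hoxa13, Hoxb13, Hoxc11, Hoxc12, Hoxc13, Hoxd11, Hoxd12 and Hoxd13. Hoxd1, Hoxd3 and Hoxd10 were at 0 throughout as well, and Hoxb1 reached 0.03 log2 CPM in 1 control APC library. A listed 0 means 1 CPM or less, so it does not show that a gene is silent. Set per kilobase of exon, the median level was 2.78 log2 CPM per kb in numbers 4 to 8, 0.34 in numbers 1 to 3 and 0.15 in numbers 9 and 10. The 4 clusters differed in reach: the Hoxa cluster (chromosome 6, GRCm38) had 9 of 11 genes tested and Hoxb (chromosome 11, 96194316 to 96368256) 8 of 10. Hoxc (chromosome 15, 102921103 to 103036852) had 6 of 9, and Hoxd (chromosome 2, 74668310 to 74765142) only Hoxd4, Hoxd8 and Hoxd9 of its 9.

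**Figure D1:**
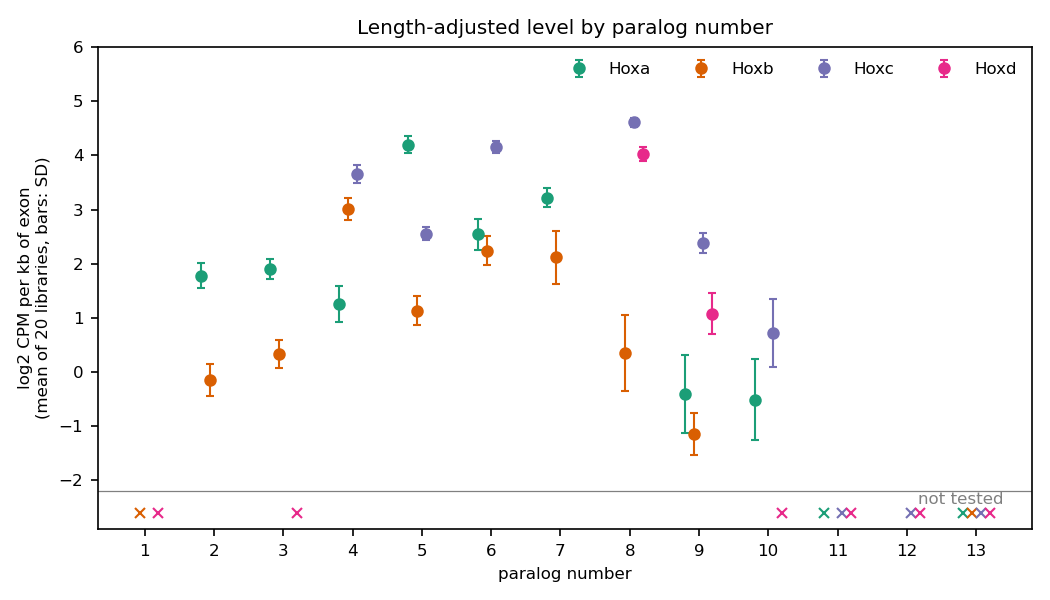
Level per kilobase of exon (log2 CPM per kb, mean of 20 libraries with SD) against paralog number, coloured by cluster. Points are 24 tested genes, without Hoxd4, whose identifier was not matched to an exon length; crosses below the line mark the 13 genes that were not tested. The highest points, Hoxc8 at 4.61, Hoxa5 at 4.20 and Hoxc6 at 4.16, lie between numbers 5 and 8.

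Hoxc8, which in fat cells is known as a repressor of the brown fat programme, had the highest level per kilobase, 4.61 ± 0.08 log2 CPM per kb (SD over 20 libraries). It was followed by Hoxa5 (4.20 ± 0.16), a gene of the lung and the cervico-thoracic skeleton that is also studied in adipocytes, and by Hoxc6 (4.16 ± 0.11). Hoxd8 (4.02 ± 0.13) and Hoxc4 (3.66 ± 0.17) came next. Hoxa5 and Hoxc6 differed by less than the larger SD of the pair, whereas Hoxc8 stood above Hoxa5, Hoxc6 above Hoxd8 and Hoxd8 above Hoxc4 by more than that. From Hoxc5 (2.55 ± 0.12) down to Hoxb9 (−1.15 ± 0.39), the lowest of the 25 genes with a length, nearly all neighbours lay within 1 SD of each other; the exception was Hoxa2 (1.78 ± 0.23) above Hoxa4 (1.26 ± 0.33).

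Beyond the genes given library by library below, 11 tested genes were not called in any comparison, and 10 of them are given here by their span of log2 CPM over the 20 libraries. Of paralog numbers 6 and 7, Hoxc6 lay between 5.23 and 5.68, Hoxa7 between 4.34 and 5.07, and Hoxa6 between 1.79 and 2.84. Of numbers 4 and 5, Hoxc4 lay between 4.64 and 5.30, Hoxc5 between 3.92 and 4.39, Hoxb5 between 2.08 and 3.07, and Hoxa4 between 1.18 and 2.46. Of the hindbrain and neck genes, Hoxa2 lay between 2.25 and 2.98, Hoxb3 between 1.92 and 2.84, and Hoxb2 between 1.18 and 2.15. Exon sequence is shared with antisense genes in several of these, most of all in Hoxb3 (52.9% of its bases, with Hoxb3os) and Hoxb2 (27.3%).

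Hoxc8 was among the steadiest members. Its values in libraries 1 to 5 were 6.19, 6.05, 6.14, 6.01 and 6.12 log2 CPM in transgenic-labelled FIPs and 6.16, 6.04, 6.01, 6.04 and 5.98 in transgenic-labelled APCs. They were 6.12, 6.11, 6.07, 6.18 and 6.17 in control FIPs and 6.12, 6.04, 6.23, 6.11 and 6.27 in control APCs. All 4 groups overlapped, and no comparison of Hoxc8 passed the test. The highest gene of the Hoxd cluster, Hoxd8, was nearly as even. It stood at 5.44, 5.53, 5.80, 5.52 and 5.38 in transgenic-labelled FIPs, 5.17, 5.44, 5.49, 5.37 and 5.34 in transgenic-labelled APCs, 5.60, 5.50, 5.44, 5.45 and 5.65 in control FIPs and 5.42, 5.41, 5.52, 5.41 and 5.62 in control APCs. These groups overlapped as well.

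Hoxb4, known for expanding blood stem cells when overexpressed, was the highest Hoxb gene per kilobase. It stood at 4.28, 4.10, 4.27, 4.20 and 4.27 log2 CPM in transgenic-labelled FIPs against 4.43, 4.13, 4.43, 4.74 and 4.65 in transgenic-labelled APCs, and at 4.23, 4.23, 4.13, 4.32 and 4.40 in control FIPs against 4.68, 4.52, 4.74, 4.29 and 4.31 in control APCs. The FIP values were lower on average under both labels (−0.25 log2 units in each), but the groups overlapped and neither difference passed (adjusted p = 0.058 under the transgenic label and 0.0577 in controls). Hoxb9 lay at the other end of its cluster and of the whole set. It was above 0 in 7 of 20 libraries: 2 transgenic-labelled FIP libraries (0.34 and 0.43), 1 transgenic-labelled APC library (0.39), 1 control FIP library (0.66) and 3 control APC libraries (0.58, 0.20 and 1.59).

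Summed over the 39 genes, Hox messenger RNA made up 397 ± 18 CPM in transgenic-labelled FIPs, 379 ± 25 CPM in transgenic-labelled APCs, 390 ± 15.8 CPM in control FIPs and 417 ± 16.3 CPM in control APCs (SD, n = 5 each). The ranges of this total overlapped for every pair of groups compared here. The Hoxc genes supplied the largest part, with 179 ± 9.06 CPM in transgenic-labelled FIPs, 172 ± 8.39 in transgenic-labelled APCs, 181 ± 6.76 in control FIPs and 185 ± 8.01 in control APCs. Of the 4 cluster sums, the Hoxa sum alone did not overlap in 1 comparison: it was 99.5 ± 4.74 CPM in control FIPs (94.5 to 105) against 120 ± 5.56 CPM in control APCs (114 to 127). Under the transgenic label the Hoxa sum was 108 ± 6.58 CPM in FIPs against 110 ± 12.4 CPM in APCs, with overlap.

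**Figure D2:**
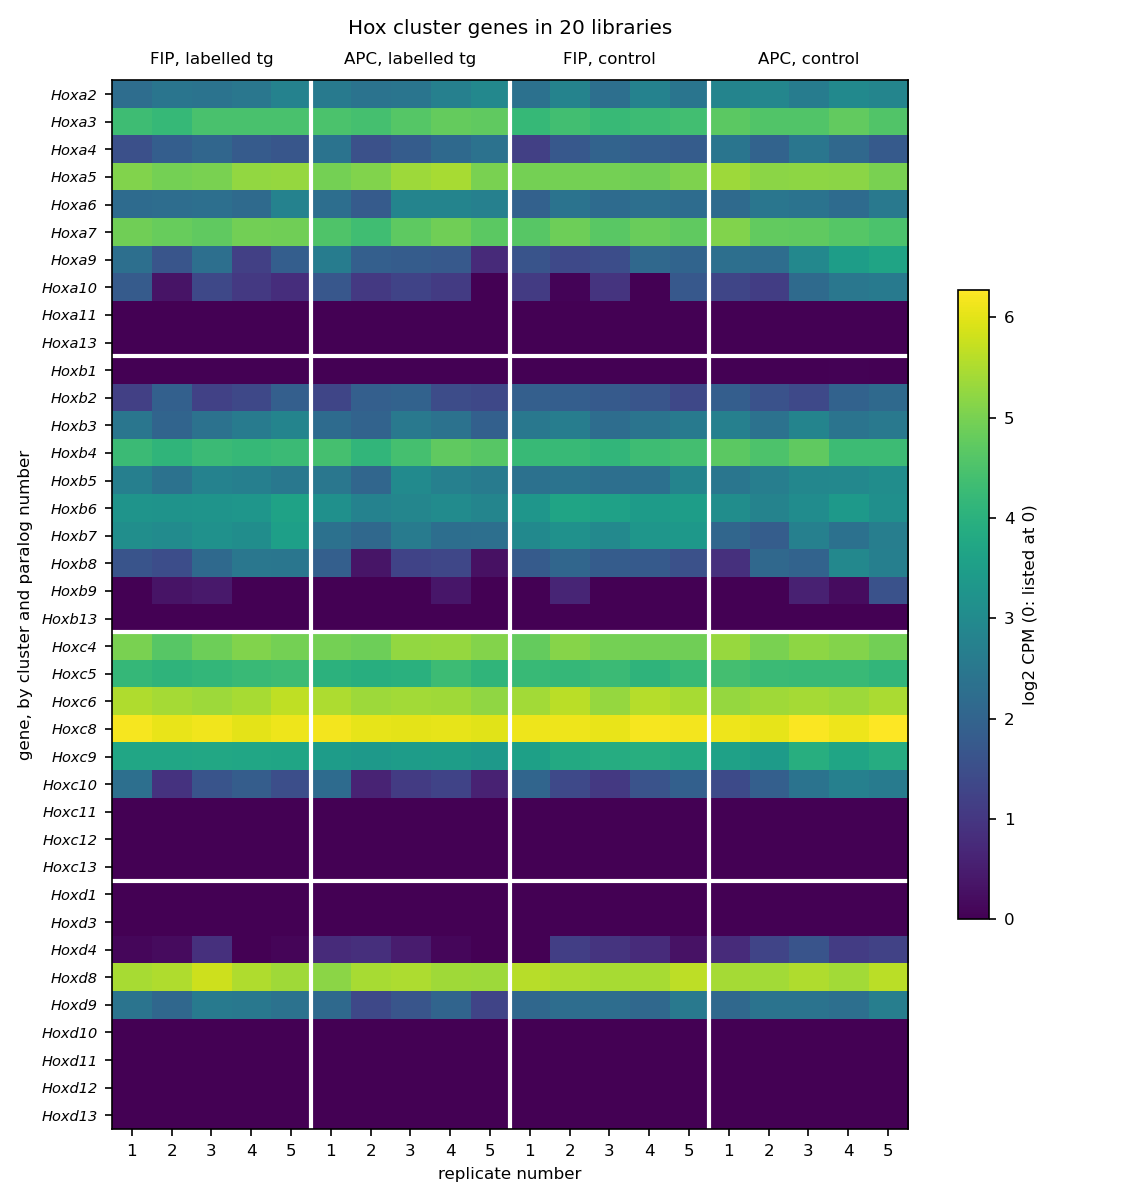
Deposited log2 CPM of 38 Hox genes (rows, by cluster and paralog number) in the 20 libraries (columns, by group and replicate number). The bands of Hoxc8, Hoxd8, Hoxc6 and Hoxa5 run evenly through all groups, the genes of paralog numbers 11 to 13 are at 0 throughout, and Hoxa9, Hoxa10 and Hoxc10 are brightest in control APC libraries 3 to 5.

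The first comparison set FIPs against APCs within each genotype label. All genes were tested together in limma with all 20 libraries in the fit, and a gene was called at a Benjamini-Hochberg adjusted p of 0.05 or less over the 17435 genes tested. The populations differ widely, so the background is high. Under the transgenic label 41.7% of all tested genes were called (22.7% higher and 19% lower in FIPs), and in controls 47.5% (19.6% higher and 27.9% lower). Of the 26 Hox genes, 6 were called under the transgenic label, 5 higher and 1 lower in FIPs, and 7 in controls, 2 higher and 5 lower. These shares lie below the background, so the Hox genes were not called more often than other genes. The median Hox difference was 0.09 log2 units under the transgenic label, beside −0.01 over all tested genes, and −0.15 in controls, beside −0.06.

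Hoxb6, Hoxb7 and Hoxa3 were called in both genotypes. Hoxb7, a neighbour of Hoxb6 in the middle of its cluster, had the clearest difference. It stood at 3.10, 3.02, 3.18, 3.08 and 3.54 log2 CPM in transgenic-labelled FIPs against 2.34, 2.13, 2.60, 2.26 and 2.28 in transgenic-labelled APCs. In controls it stood at 2.98, 3.18, 2.94, 3.30 and 3.35 in FIPs against 2.07, 1.85, 2.73, 2.35 and 2.68 in APCs. Every FIP library lay above every APC library of the same label. The difference was 0.86 ± 0.16 log2 units (SE; 1.82-fold; limma adjusted p = 0.000145) under the transgenic label and 0.81 ± 0.16 (1.76-fold; adjusted p = 0.000286) in controls.

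Hoxb6, expressed in lateral plate mesoderm of the embryo, moved with it by a smaller amount. It stood at 3.24, 3.23, 3.24, 3.30 and 3.61 log2 CPM in transgenic-labelled FIPs against 3.14, 2.79, 2.87, 3.02 and 2.86 in transgenic-labelled APCs, without overlap. In controls it stood at 3.29, 3.66, 3.60, 3.44 and 3.50 in FIPs against 3.07, 2.80, 3.04, 3.40 and 3.13 in APCs, where library 4 of the APCs overlapped the FIPs. The difference was 0.39 ± 0.11 log2 units (limma adjusted p = 0.00914) under the transgenic label and 0.41 ± 0.11 (adjusted p = 0.00572) in controls. Both genes lie side by side on chromosome 11 (Hoxb7 96286623 to 96290162, Hoxb6 96292476 to 96301569), and neither shares exon sequence with another annotated gene. Hoxb5, the next gene, was not called: its difference was 0.03 log2 units under the transgenic label and −0.38 in controls (adjusted p = 0.0538).

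Hoxa3, needed for thymus and parathyroid formation, was lower in FIPs. It stood at 4.32, 4.21, 4.46, 4.47 and 4.47 log2 CPM in transgenic-labelled FIPs against 4.50, 4.43, 4.62, 4.80 and 4.73 in transgenic-labelled APCs, with overlap. In controls it stood at 4.21, 4.38, 4.22, 4.31 and 4.38 in FIPs against 4.70, 4.58, 4.58, 4.76 and 4.56 in APCs, without overlap. The difference was −0.23 ± 0.08 log2 units (limma adjusted p = 0.0187) under the transgenic label and −0.34 ± 0.08 (adjusted p = 0.00115) in controls. Hoxa3 shares 27.1% of its exon bases (chromosome 6, 52169062 to 52213336) with other genes, chiefly on the opposite strand. Among them are Hoxaas2, an antisense transcript that was itself lower in FIPs (2.79 in transgenic-labelled FIPs against 3.43 in transgenic-labelled APCs, and 2.76 in control FIPs against 3.26 in control APCs), and 5730596B20Rik. No source used here says whether counting used strand, so reads of Hoxa3 and its antisense partners cannot be told apart. The call of Hoxa3 under the transgenic label was lost without FIP library 2 (adjusted p = 0.0625), APC library 4 (0.0643) or APC library 5 (0.0517), and with only the groups compared in the fit (0.0529).

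Under the transgenic label 3 further genes were called, all higher in FIPs. Hoxd9, a limb and lumbar patterning gene, stood at 2.42, 2.10, 2.59, 2.52 and 2.37 log2 CPM in FIPs against 2.14, 1.36, 1.66, 2.02 and 1.28 in APCs (0.71 ± 0.16, adjusted p = 0.00125). Hoxb8, used in the laboratory to immortalise myeloid progenitors, stood at 1.63, 1.48, 2.14, 2.49 and 2.47 in FIPs against 1.91, 0.36, 1.26, 1.33 and 0.28 in APCs (1.01 ± 0.34, adjusted p = 0.0198). Both were lowest in APC libraries 2 and 5, and in both APC library 1 overlapped the FIPs. Hoxc9 stood at 3.71, 3.72, 3.77, 3.70 and 3.68 in FIPs against 3.46, 3.36, 3.47, 3.49 and 3.36 in APCs, a small but even difference without overlap (0.29 ± 0.09, adjusted p = 0.0141). The Hoxb8 call was lost without FIP library 4 (adjusted p = 0.0531), FIP library 5 (0.0533), APC library 2 (0.0617) or APC library 5 (0.0632), and that of Hoxc9 under quantile normalization (0.0887, with a difference of 0.18). In controls, none of these 3 was called: the differences were −0.13 for Hoxd9, −0.32 for Hoxb8 and 0.09 for Hoxc9.

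In controls 4 further genes were called, all lower in FIPs. Hoxa9, a gene of blood progenitors and the lumbar axis, stood at 1.62, 1.39, 1.49, 2.13 and 2.02 log2 CPM in FIPs against 2.28, 2.25, 2.93, 3.50 and 3.65 in APCs, without overlap (−1.19 ± 0.32, adjusted p = 0.00426). Hoxa10, its neighbour and a gene of uterine and lumbar identity, stood at 1.10, 0.07, 0.94, 0.00 and 1.73 in FIPs against 1.32, 1.13, 2.17, 2.49 and 2.56 in APCs (−1.17 ± 0.37, adjusted p = 0.0137). For both, APC libraries 3 to 5 were the high ones, and APC libraries 1 and 2 lay close to the FIPs. Under the transgenic label the same 2 genes differed by 0.10 and 0.05 log2 units, and neither was called. Without control APC libraries 4 and 5 together, an alternative chosen after the data were seen, the difference in controls was −0.76 for Hoxa9 (adjusted p = 0.0741) and −0.77 for Hoxa10 (0.144), and neither call held.

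Hoxa5 was lower by a small amount, 4.96, 4.95, 4.96, 4.91 and 5.06 log2 CPM in control FIPs against 5.36, 5.17, 5.21, 5.18 and 5.02 in control APCs (−0.22 ± 0.09, limma adjusted p = 0.0449). Under the transgenic label it stood at 5.08, 4.96, 5.02, 5.26 and 5.29 in FIPs against 4.97, 5.07, 5.35, 5.44 and 5.0 in APCs, and was not called. Hoxd4, a hindbrain and upper neck gene, stood at 0.00, 1.16, 0.94, 0.77 and 0.30 in control FIPs against 0.78, 1.29, 1.64, 1.12 and 1.24 in control APCs (−0.58 ± 0.23, adjusted p = 0.0436). Hoxa5 and Hoxd4 were near the threshold: centring each library on its median gave adjusted p = 0.193 for Hoxa5 and 0.0629 for Hoxd4, and leaving out any of 9 single libraries ended each call, with adjusted p between 0.0509 and 0.117 for Hoxa5 and between 0.0501 and 0.142 for Hoxd4. For Hoxa5 these were transgenic-labelled FIP library 1, control FIP libraries 1 to 4 and control APC libraries 1 to 4. For Hoxd4 they were transgenic-labelled FIP library 2, transgenic-labelled APC library 3, control FIP libraries 1, 4 and 5 and control APC libraries 2 to 5.

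**Figure D3:**
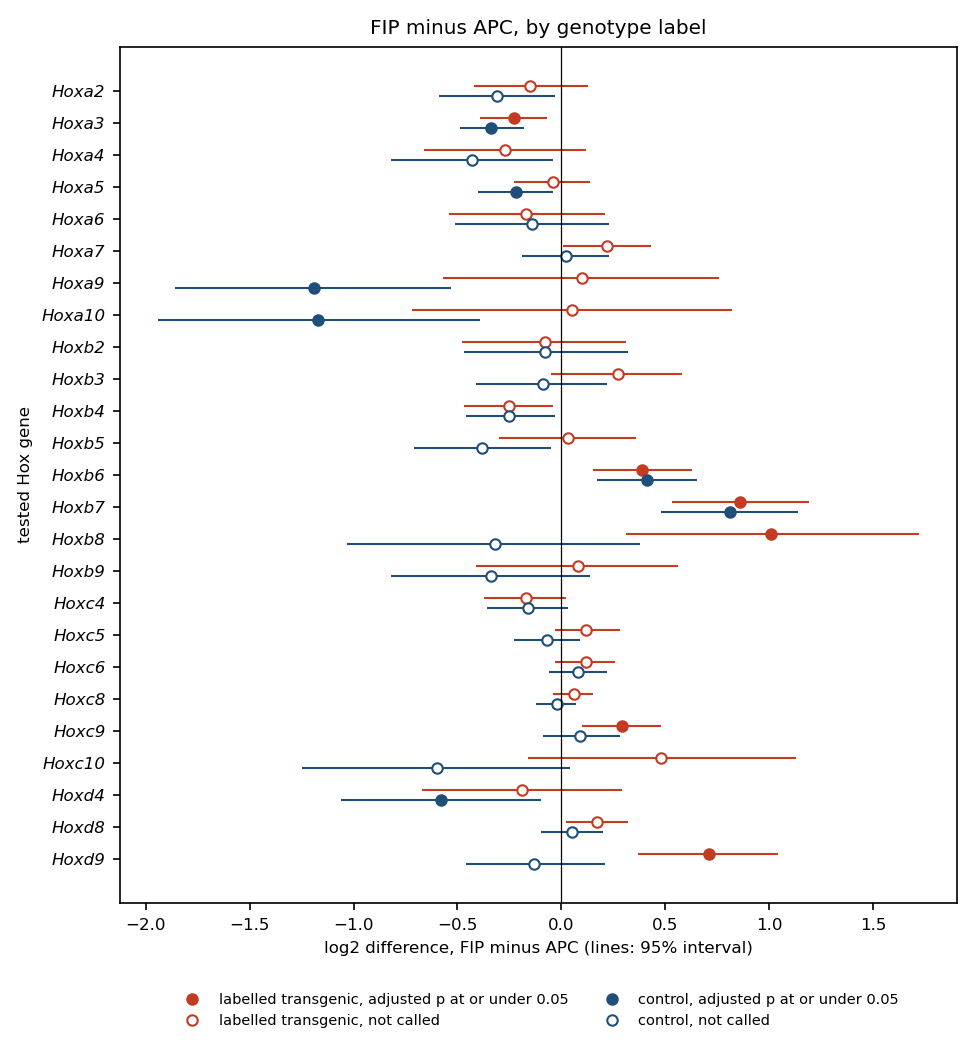
Difference in log2 CPM, FIP minus APC, for 25 tested Hox genes under the transgenic label (red) and in controls (blue), with 95% confidence intervals; filled points passed an adjusted p of 0.05. Hoxb6 and Hoxb7 lie to the right and Hoxa3 to the left under both labels, whereas Hoxa9, Hoxa10, Hoxb8, Hoxc10 and Hoxd9 lie at different places under the 2 labels.

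The balance of higher against lower calls over all genes depended on the scaling. Of the called genes, 54.5% were higher in FIPs under the transgenic label and 41.3% in controls. With libraries centred on their medians these shares were 43.8% and 52.8%. Among Hox genes the split was 5 higher and 2 lower under the transgenic label after centring, with Hoxb4 added as lower, and 3 higher and 3 lower in controls, where Hoxa5 and Hoxd4 dropped out and Hoxc6 came in as higher. Hoxb6 and Hoxb7 stayed higher and Hoxa3 stayed lower in FIPs under both scalings.

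Markers of other cells differed between the sorted populations as well. In controls 9 of 10 mesothelial markers, 10 of 10 mural markers, 6 of 6 erythroid markers and 11 of 12 endothelial markers were called lower in FIPs than in APCs. Under the transgenic label 2 of 10 mesothelial, 6 of 10 mural, 3 of 6 erythroid and 1 of 12 endothelial markers were called lower. Differences under the transgenic label were below 0 for 9 mesothelial, 8 mural, 6 erythroid and 7 endothelial markers. Macrophage markers were called less often: of 12, 2 were called lower in controls and 1 under the transgenic label. Their differences were below 0 for 12 in controls and 11 under the transgenic label. Over all tested genes 27.9% were called lower in controls and 19% under the transgenic label. Mean mesothelial marker level was 2.41 to 3.05 log2 CPM in transgenic-labelled FIPs against 2.91 to 3.83 in transgenic-labelled APCs, and 2.68 to 3.30 in control FIPs against 3.46 to 4.50 in control APCs. No marker of these lists was at 0 in all libraries. The part of such cells in the Hox differences was not tested.

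The second comparison set the transgenic label against control within each population. In FIPs 0.373% of all tested genes were called and none of the 26 Hox genes. None of the 26 had an unadjusted limma p under 0.05 either, beside 1843 of 17435 over all tested genes. The differences ran from −0.38 (Hoxd4) to 0.30 (Hoxa10) log2 units, and 23 of 26 were within 0.2 of 0. The precision differed by level: the interval for Hoxc8 was −0.13 to 0.07, that for Hoxb7 −0.30 to 0.36, and that for Hoxa10 −0.47 to 1.08. The median was 0.02, beside 0.01 over all tested genes.

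In APCs 5 Hox genes were called, all lower under the transgenic label: Hoxa9, Hoxb8, Hoxc10, Hoxd4 and Hoxd9. Over all genes 8.01% were called, 2.1% higher and 5.91% lower. The 5 calls in 26 lie above that background, and no Hox gene was called higher. Of the 26, 25 differences were below 0, beside 10017 of 17435 over all tested genes, and the median was −0.19, beside −0.03. With libraries centred on their medians, which moved this comparison by 0.09 log2 units, 18 of 26 were below 0 and the median was −0.10. By paralog number, 3 of the 6 tested genes of numbers 9 and 10 were called, 2 of the 15 of numbers 4 to 8, and none of the 5 of numbers 1 to 3. The median difference was −0.80 log2 units in numbers 9 and 10, −0.10 in numbers 4 to 8 and −0.22 in numbers 1 to 3.

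Hoxa9 stood at 2.64, 1.90, 1.82, 1.74 and 0.74 log2 CPM in transgenic-labelled APCs, against 2.28, 2.25, 2.93, 3.50 and 3.65 in control APCs. The difference was −1.15 ± 0.32 log2 units (0.449-fold; limma adjusted p = 0.036). Transgenic-labelled library 1 lay above control libraries 1 and 2, so the groups overlapped. Its neighbour Hoxa10 stood at 1.70, 1.04, 1.26, 1.10 and 0.00 in transgenic-labelled APCs against 1.32, 1.13, 2.17, 2.49 and 2.56 in control APCs (−0.91 ± 0.37), and was not called (adjusted p = 0.125).

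Hoxb8 stood at 1.91, 0.36, 1.26, 1.33 and 0.28 log2 CPM in transgenic-labelled APCs against 0.88, 2.13, 2.00, 2.93 and 2.71 in control APCs. The difference was −1.10 ± 0.34 (0.466-fold; adjusted p = 0.0493), with overlap through transgenic-labelled libraries 1, 3 and 4 and control library 1. Hoxc10, which in mice marks subcutaneous fat and restrains browning, stood at 2.18, 0.62, 1.10, 1.26 and 0.60 in transgenic-labelled APCs against 1.4, 1.90, 2.39, 2.73 and 2.62 in control APCs (−1.06 ± 0.31, 0.481-fold; adjusted p = 0.0432). Here library 1 of the transgenic label was the high one again. Hoxc10 shares 8.70% of its exon bases with Hoxc5. Its FIP values, 2.29, 0.92, 1.62, 1.84 and 1.50 under the transgenic label against 2.05, 1.39, 1.05, 1.6 and 1.93 in controls, overlapped throughout.

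Hoxd9 stood at 2.14, 1.36, 1.66, 2.02 and 1.28 log2 CPM in transgenic-labelled APCs against 2.12, 2.40, 2.39, 2.28 and 2.68 in control APCs. The difference was −0.68 ± 0.16 (0.623-fold; adjusted p = 0.0222), the smallest adjusted p among the Hox genes in this comparison, and only library 1 of each group overlapped. Hoxd4 stood at 0.76, 0.85, 0.47, 0.10 and 0.00 in transgenic-labelled APCs against 0.78, 1.29, 1.64, 1.12 and 1.24 in control APCs (−0.78 ± 0.23, 0.583-fold; adjusted p = 0.0446), with overlap through transgenic-labelled library 2 and control library 1. These values sit at the floor of the table, where CPM of 1 or less is listed as 0, so the fold is understated. The Hoxd4 identifier of the table is absent from GENCODE M21, which gives Hoxd4 another identifier and places Hoxd3 and Gm28230 over some of the same bases. Hoxd3, with 62.9% of its exon bases shared, was listed at 0 in all libraries. In FIPs Hoxd4 stood at 0.10, 0.19, 0.88, 0.00 and 0.08 under the transgenic label against 0.00, 1.16, 0.94, 0.77 and 0.30 in controls, with overlap.

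Hoxb7 and Hoxb6, which were called between FIPs and APCs, were not called between labels in APCs, where their values overlapped. Hoxc9 averaged lower under the transgenic label (3.46, 3.36, 3.47, 3.49 and 3.36 in transgenic-labelled APCs against 3.60, 3.44, 3.93, 3.69 and 3.87 in control APCs; −0.28 ± 0.09) but missed the threshold (adjusted p = 0.0606). In FIPs it stood at 3.56, 3.80, 3.87, 3.93 and 3.84 in controls, around the transgenic-labelled values given above.

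**Figure D4:**
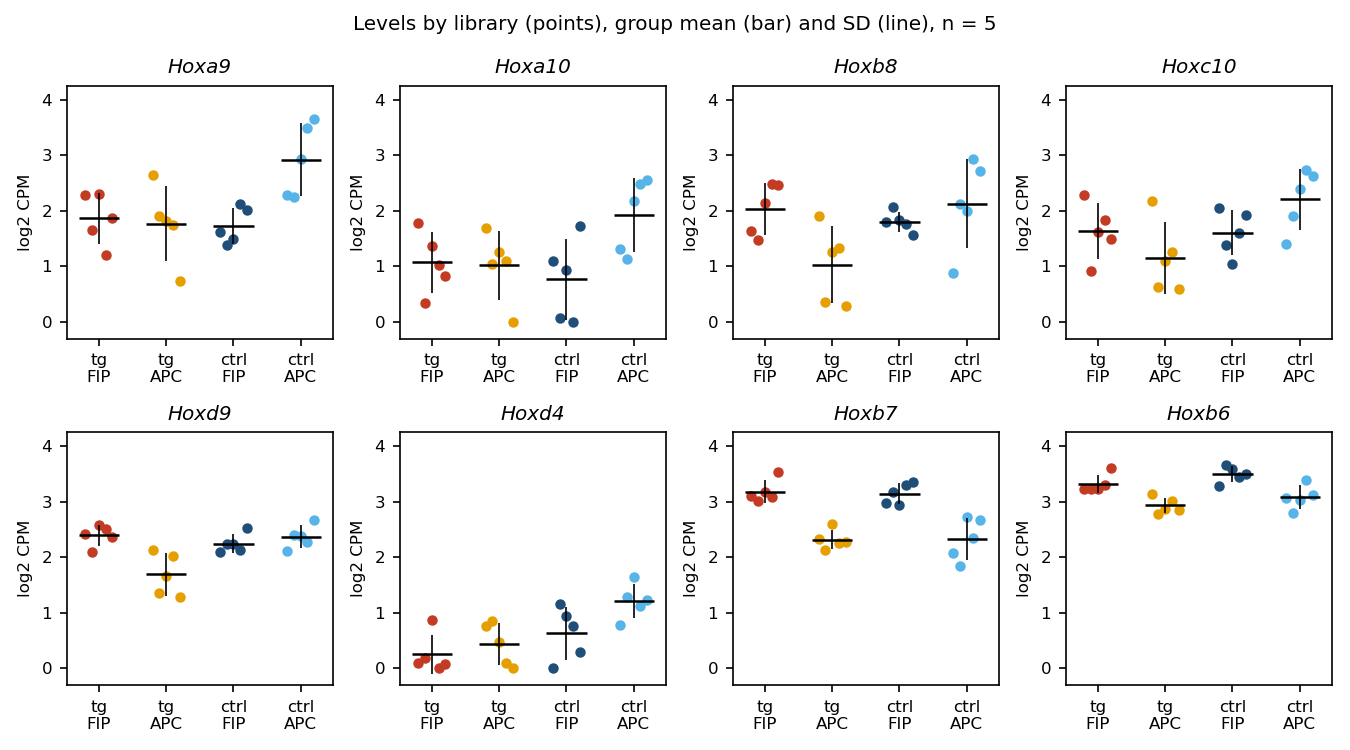
Log2 CPM of 8 Hox genes in every library (points), with the group mean (bar) and SD (line, n = 5). From left to right in each panel are transgenic-labelled FIPs, transgenic-labelled APCs, control FIPs and control APCs; Hoxa9, Hoxa10, Hoxb8 and Hoxc10 spread by 1 log2 unit or more within both APC groups, whereas Hoxb7 separates FIPs from APCs under both labels and Hoxb6 under the transgenic label, with overlap in controls.

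These 5 calls depended on which libraries were in the fit, whereas the differences kept their sign. With libraries left out singly, the difference ran between −1.37 and −0.90 log2 units for Hoxa9, between −1.41 and −0.90 for Hoxb8, between −1.31 and −0.92 for Hoxc10, between −0.89 and −0.67 for Hoxd4 and between −0.79 and −0.58 for Hoxd9. The count was 5 with all 20 libraries, 0 without transgenic-labelled APC library 2 or 5 or control APC library 5, 1 (Hoxd9) without transgenic-labelled APC library 3 or 4 or control APC library 3 or 4, 2 without control FIP library 4, and 3 without transgenic-labelled FIP library 2 or 3 or control FIP library 2. With libraries left out singly, the call held in 17 of 20 fits for Hoxd9, 13 for Hoxa9, 10 each for Hoxc10 and Hoxd4, and 2 for Hoxb8. With only the 10 APC libraries in the fit, which leaves the differences as they are and estimates the spread from fewer libraries, the count was 0, as it was over all 17435 genes. Over all genes the calls ran in the other direction after centring, when 62.6% of called genes were higher under the transgenic label, beside 26.2% before it; the same 5 Hox genes were called then, all lower.

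The APC libraries high in Hoxa9, Hoxa10 and Hoxc10 were also high in markers of other cells. Mean mesothelial marker level was 3.83, 3.24, 3.01, 2.91 and 3.05 log2 CPM in transgenic-labelled APC libraries 1 to 5, against 3.46, 3.57, 3.96, 4.24 and 4.50 in control APC libraries 1 to 5. The 4 libraries with the most mesothelial marker RNA, control libraries 5, 4 and 3 and transgenic-labelled library 1, were also the 4 highest for these 3 genes. For Hoxb8, Hoxd4 and Hoxd9 the 4 highest APC libraries were control libraries 2 to 5. Over the list, 3 of 10 markers (Lrrn4, Krt8 and Gpm6a) were called lower under the transgenic label, beside 5.91% of all tested genes. None of the 10 was at 0 in all libraries. Wt1, which is on that list, is also expressed by stromal cells of visceral fat and was not called (7.14 log2 CPM in transgenic-labelled APCs against 7.16 in control APCs).

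Erythroid markers followed a like order, with means of 6.31, 5.18, 5.45, 5.31 and 5.0 log2 CPM in transgenic-labelled APCs against 5.87, 6.10, 6.45, 6.80 and 6.74 in control APCs, and 6 of 6 called lower. Macrophage markers averaged 4.10, 3.76, 3.85, 3.69 and 3.33 in transgenic-labelled APCs against 3.96, 4.65, 4.60, 4.31 and 4.66 in control APCs, and 8 of 12 were called lower. Mural markers had 1 of 10 called lower, with library means of 5.36 to 5.76 in transgenic-labelled APCs against 5.58 to 6.16 in control APCs. Endothelial markers had 1 of 12 called higher and 1 lower. Over all tested genes 2.1% were called higher and 5.91% lower in this comparison. Transgenic-labelled APC library 5, the lowest for Hoxa9, Hoxa10, Hoxb8, Hoxc10, Hoxd9 and Hoxd4, also had the lowest depth estimate, 6.6 reads per CPM. Control FIP library 3 was close, at 6.77. The estimate for transgenic-labelled APC library 5 had the poorest fit to the spacing of low values (67.1% whole steps). Of Pdgfra and the genes of the sort markers, 7 in all, 3 were called lower in transgenic-labelled APCs and none higher. Cd9 averaged 4.39 ± 0.26 log2 CPM in transgenic-labelled APCs against 5.04 ± 0.14 in control APCs. Ly6c2 averaged 3.05 ± 0.11 against 3.58 ± 0.12, while Pdgfra (9.36 against 9.27) and Pdgfrb (9.44 against 9.38) went the other way. The part of these cells, of the sort and of depth in the Hox differences was not tested. Control APC libraries 4 and 5, the highest in mesothelial markers, were left out together in an alternative chosen after the data were seen. The differences were then −0.72 for Hoxa9, −0.64 for Hoxb8, −0.74 for Hoxc10, −0.80 for Hoxd4 and −0.61 for Hoxd9. None was called (limma adjusted p between 0.14 and 0.385). Both libraries were also the highest control APC libraries for Hoxa9, Hoxb8 and Hoxc10. Leaving them out lowers those differences whatever the cause, so this fit does not test one.

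**Figure D5:**
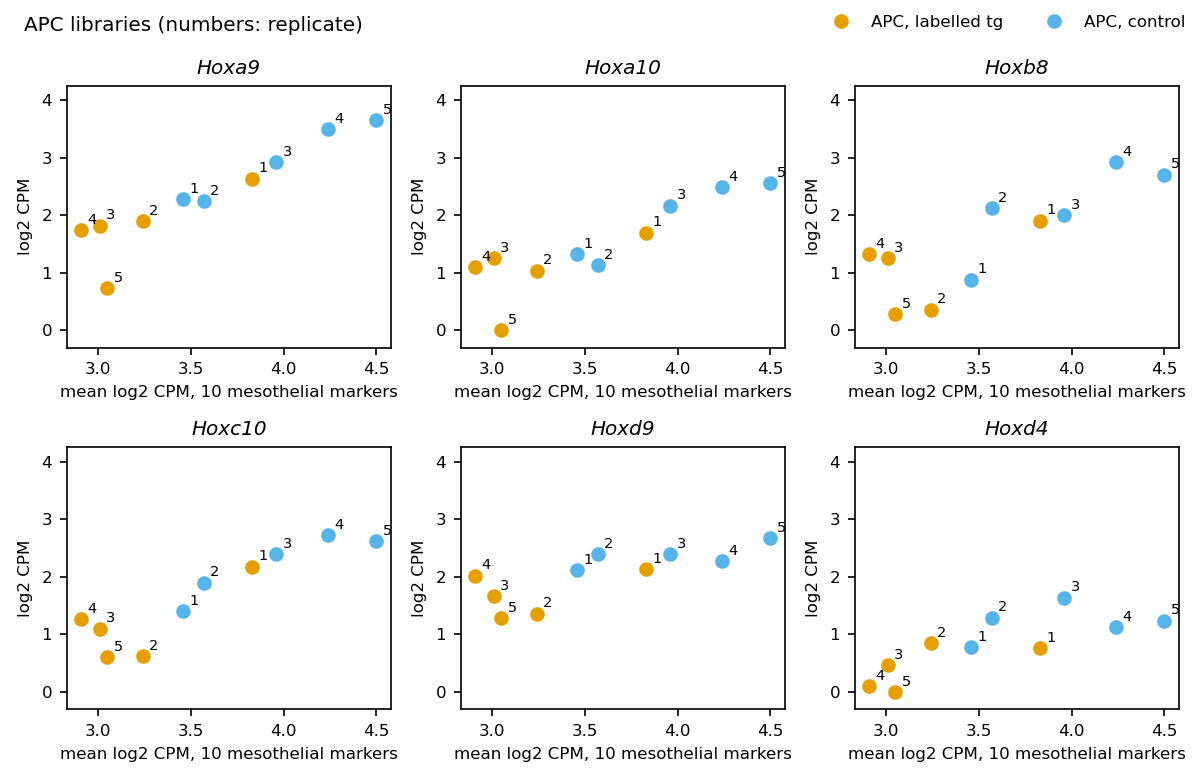
Log2 CPM of 6 Hox genes in the 10 APC libraries against the mean log2 CPM of 10 mesothelial markers in the same library, with replicate numbers beside the points. Control libraries 3 to 5 lie to the right, at 3.96 to 4.50, and transgenic-labelled libraries 2 to 5 to the left, at 2.91 to 3.24; Hoxa9 and Hoxa10 are highest on the right, and library 1 of the transgenic label lies among the controls.

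The start regions are shown of the genes called lower in APCs under the transgenic label. A shared control of these genes was not tested. RefSeq gives a window for Hoxa9, Hoxb8, Hoxd4 and Hoxd9 (GRCm38.p6), and Hoxc10 is named only. Each line holds the 250 bases before the start, 5′ to 3′ on the strand of the gene. Capitals mark matches, on either strand, to 4 motifs: the CCAAT box, the TATA box in its form TATAAA, the form TTTATNG that Hox proteins of high paralog number bind, and TGATTNAT, a joint Pbx and Hox sequence type.
Hoxa9, minus strand of chr6:52227371-52227620: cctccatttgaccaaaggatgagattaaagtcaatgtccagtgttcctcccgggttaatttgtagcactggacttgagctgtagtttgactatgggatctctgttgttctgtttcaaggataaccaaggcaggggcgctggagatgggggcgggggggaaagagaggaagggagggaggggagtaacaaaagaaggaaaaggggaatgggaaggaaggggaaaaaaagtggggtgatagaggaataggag
Hoxb8, plus strand of chr11:96281655-96281904: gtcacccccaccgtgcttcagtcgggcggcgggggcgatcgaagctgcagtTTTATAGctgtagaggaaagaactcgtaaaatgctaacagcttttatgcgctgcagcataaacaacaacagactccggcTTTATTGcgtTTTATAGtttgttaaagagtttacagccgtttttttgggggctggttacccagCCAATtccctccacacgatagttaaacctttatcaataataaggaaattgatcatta
Hoxd4, plus strand of chr2:74721728-74721977: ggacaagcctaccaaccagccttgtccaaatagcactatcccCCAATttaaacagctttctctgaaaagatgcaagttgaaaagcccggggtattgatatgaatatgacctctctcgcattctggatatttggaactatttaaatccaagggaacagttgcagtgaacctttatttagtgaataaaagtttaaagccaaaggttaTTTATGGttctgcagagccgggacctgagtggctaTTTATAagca
Hoxd9, plus strand of chr2:74697513-74697762: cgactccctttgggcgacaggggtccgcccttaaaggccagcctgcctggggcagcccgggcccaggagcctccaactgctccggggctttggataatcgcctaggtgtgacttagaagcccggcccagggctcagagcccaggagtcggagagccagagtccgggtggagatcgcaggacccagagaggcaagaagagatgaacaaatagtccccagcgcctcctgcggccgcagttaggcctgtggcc
The Hoxb8 window held CCAAT 57 to 53 bases before the start and TTTATNG 3 times on the strand of the gene, at 199 to 193, 120 to 114 and 110 to 104 bases before it. The first and last of these overlap TATAAA read on the other strand. The Hoxd4 window held CCAAT at 208 to 204, TTTATNG at 45 to 39 and TATAAA on the other strand at 10 to 5 bases before the start. The Hoxa9 and Hoxd9 windows held none of the 4, which says only that these letters are not in them. Of 32851 windows of this length in the RefSeq table, 33.8% held CCAAT, 12.4% TATAAA, 9.8% TTTATNG and 2.8% TGATTNAT. Of the 24 windows of Hox genes, 58.3% held CCAAT, 16.7% TATAAA, 8.3% TTTATNG and 8.3% TGATTNAT. CG dinucleotides numbered 3 in the Hoxa9 window, 12 in that of Hoxb8, 3 in that of Hoxd4 and 13 in that of Hoxd9, beside a median of 6 over all windows.

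Whether the FIP to APC difference itself changed with the genotype label was tested as an interaction. No gene of the 17435 passed (0% called; limma), and 2388 had an unadjusted p under 0.05, 5 of them Hox genes. These 5 were Hoxd9 (0.83 ± 0.23 log2 units, adjusted p = 0.163), Hoxa9 (1.29 ± 0.45, 0.25), Hoxb8 (1.34 ± 0.48, 0.257), Hoxc10 (1.09 ± 0.44, 0.289) and Hoxa10 (1.22 ± 0.53, 0.315). Of the 26 Hox estimates 21 were above 0, with a median of 0.18 beside 0.05 over all tested genes. Centring of the libraries moved all interaction estimates by 0.12 log2 units, after which 17 were above 0 and the median was 0.07. A call in one genotype and not in the other, as for Hoxa9 or Hoxd9, is therefore not shown to differ between genotypes. The control APC libraries enter the comparison with control FIPs, the comparison with transgenic-labelled APCs and the interaction, so these results are not independent of one another.

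All 10 TALE genes, the DNA-binding partners of Hox proteins, were tested, with group means between 6.12 and 6.66 log2 CPM for Meis1. Between FIPs and APCs, 3 were called higher and 1 lower under the transgenic label, and 4 higher and 2 lower in controls, with list medians of 0.00 under the transgenic label and 0.07 in controls. These shares lie near the 41.7% and 47.5% of all tested genes called. Pbx4 was higher in FIPs (1.73 in transgenic-labelled FIPs against 0.21 in transgenic-labelled APCs, and 1.94 in control FIPs against 0.57 in control APCs), as were Pbx3 (by 0.45 log2 units under the transgenic label and 0.43 in controls) and Pknox2 (by 0.44 under the transgenic label and 0.37 in controls). Meis1 was lower in FIPs (−0.41 under the transgenic label, adjusted p = 0.000133, and −0.37 in controls, adjusted p = 0.000411). Between genotype labels 1 of the 10 was called in APCs, beside 8.01% of all tested genes. This was Meis3 (5.45 under the transgenic label against 5.23 in controls, limma adjusted p = 0.0377). None was called in FIPs, where 1 had an unadjusted p under 0.05, beside 1843 of 17435 over all tested genes.

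Of the 37 Polycomb and Trithorax genes examined, 34 were tested. Between FIPs and APCs 10 were called higher and 8 lower under the transgenic label (median 0.01), and 7 higher and 4 lower in controls (median −0.05), beside 41.7% and 47.5% of all tested genes called. Cbx7, a Polycomb reader of silenced chromatin, was lower in FIPs (5.21 in transgenic-labelled FIPs against 6.11 in transgenic-labelled APCs, and 5.21 in control FIPs against 6.07 in control APCs). Aebp2, a cofactor of Polycomb complex 2, was higher in FIPs (0.32 log2 units under the transgenic label and 0.26 in controls), and so was Bmi1, a core protein of Polycomb complex 1 (0.42 under the transgenic label and 0.20 in controls). Between labels in APCs 1 of the 34 was called, beside 8.01% of all tested genes. This was Bmi1 (5.31 under the transgenic label against 5.51 in controls, limma adjusted p = 0.0496). None was called in FIPs, where 4 had an unadjusted p under 0.05, beside 1843 of 17435 over all tested genes.

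Other genes annotated within the clusters, mostly antisense and non-coding, numbered 49 in the table. Of these 11 were tested and 35 were at 0 in all libraries, among them all 7 of type miRNA. Between FIPs and APCs 2 were called higher and 1 lower under the transgenic label, and 1 higher and 3 lower in controls, shares below the 41.7% and 47.5% of all tested genes called. Hoxaas2 was lower in FIPs (−0.64 under the transgenic label, adjusted p = 0.00233, and −0.50 in controls, adjusted p = 0.012), and the pseudogene Gm11539 higher (0.31 under the transgenic label and 0.24 in controls). Hoxd3os1, antisense to Hoxd3, was higher in FIPs under the transgenic label (1.70 against 1.12 in APCs, adjusted p = 0.011), and 5730596B20Rik lower in control FIPs (2.66 against 3.25 in APCs, adjusted p = 0.0158). None of the 11 was called between labels. Unadjusted limma p was under 0.05 for 0 in APCs and 1 in FIPs, beside 4444 and 1843 of 17435 over all tested genes.

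Among 34 other genes of regional patterning, 23 were tested. Between FIPs and APCs 5 were called higher and 5 lower under the transgenic label (median −0.02), and 4 higher and 9 lower in controls (median −0.19), shares near the 41.7% and 47.5% of all tested genes called. Tbx2, a T-box repressor, was lower in FIPs (3.94 in transgenic-labelled FIPs against 5.22 in transgenic-labelled APCs, and 3.67 in control FIPs against 5.10 in control APCs), and Nr2f2, a nuclear receptor of venous and mesenchymal cells, was lower as well (−0.72 log2 units under the transgenic label and −0.82 in controls). En1, a homeodomain factor, was higher in FIPs (1.93 in transgenic-labelled FIPs against 0.08 in transgenic-labelled APCs, and 2.16 in control FIPs against 0.68 in control APCs), and so was Msx1 (0.74 under the transgenic label and 0.80 in controls). None of the 23 was called between labels, with 3 in APCs and 2 in FIPs at an unadjusted limma p under 0.05. Over all tested genes 4444 of 17435 in APCs and 1843 in FIPs had such a p.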

How the data were processed

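Bulk RNA sequencing of polyadenylated RNA gave 20 libraries in 4 groups of 5, each a pool of 2 mice. The authors deposited 1 table of 54304 genes on a log2 CPM scale (counts scaled to library size, with CPM of 1 or less listed as 0); its header and values give 2 decimals. Per the submitters' processing notes, Trim Galore 0.4.1, HISAT2 2.0.1, featureCounts 1.4.6, DESeq2 1.6.3 and the genome GRCm38 were used. The annotation release, the use of strand and the role of DESeq2 were not given in the sources used here.

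Within a fixed search range, which bounds the estimates, depth was read from the spacing of the lowest values. Between 67.1 and 86.8% of them were whole steps of this spacing within 0.0051 log2 units, which is short of nearly all, so no count test was used. A CPM held 13.2 to 17.0 steps. Between 83.6 and 88.1% of the low values were an even number of steps, so a pair of steps was taken as 1 read. The 17435 genes above 0 in at least 5 libraries were fitted in limma 3.58.1 (R 4.3.3) with 1 mean per group, 16 residual degrees of freedom, a trended variance prior and a Benjamini-Hochberg threshold of 0.05. The pipeline was tested on simulated data for the label comparison in FIPs. Effects were added there only to genes of higher mean level and without a floor, so genes near the floor were not covered. Fold changes understate the change of genes near the floor. GENCODE M21 held 38 of the 39 Hox identifiers; the coordinates of Hoxd4 are from RefSeq (GRCm38.p6), as are start regions, found for 22 of the 39. Levels between genes were compared per kilobase of the union of exons.

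The members and gene lists were chosen with earlier results of these data known. Of the members, 1 enters the fit and the counts but is not reported here by name, and neither is 1 gene of another list. Libraries are named where values are given for every member called in at least 1 comparison and for the highest and lowest member of each cluster; the other lists are given by counts and by at most 4 members with the smallest adjusted p, with Meis3 and the antisense partners of Hoxa3 named beside them after their values were seen. FIP and APC pools of a genotype share mice that the labels do not identify, and the fit took libraries as independent, so p-values reflect the spread between pools. Replicate numbers were not taken as pairs. Alternatives were log2(CPM + 1), no filter, a filter of 10 libraries, median centring, quantile normalization, only the groups compared, a replicate block and each library left out. The replicate block went by library number, and the same numbers occur in both genotypes although their mice differ. A block for mice shared within a genotype was not fitted, so the effect of this sharing was not tested.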

Additional observations from a re-analysis of the deposited data

Results flagged for a closer look

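In 60 groups of 5 libraries (the Hox genes called in at least 1 comparison and the highest and lowest of each cluster), 4 single libraries stood far from the other 4 of their group by a gap test, which chance alone gives in about 1 of 20 groups. Hoxb6 was 3.61 log2 CPM in transgenic-labelled FIP library 5, against 3.23 to 3.30 in the others; it was called higher in FIPs than in APCs without that library as well. Hoxb9 was 0.39 in transgenic-labelled APC library 4 and 0.66 in control FIP library 2, against 0 in the other 4 libraries of each group. With the others at the listed floor of 0, the gap test flags any value above 0, so the chance rate does not apply to Hoxb9. Hoxd4 was 0.88 in transgenic-labelled FIP library 3, against 0 to 0.19 in the others.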

How the results depend on the processing

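The number of Hox calls between FIPs and APCs was 6 under the transgenic label (4 to 7 with 1 library left out) and 7 in controls (5 to 10), and every other setting stayed within 1.5 times of these, though not always with the same genes: in controls Hoxa5 and Hoxd4 were each called in 11 of 20 fits with 1 library left out. Between labels in FIPs the count was 0 under every setting. Between labels in APCs the count of 5 became 2 on log2(CPM + 1), 1 with no filter and 2 after quantile normalization. It was 0 with only the groups compared, 3 with the replicate block and 0 to 6 with 1 library left out. Without control APC libraries 4 and 5 together, an alternative chosen after the data were seen, it was 0. The interaction gave 0 to 1 with 1 library left out; the 1 was Hoxd9, without transgenic-labelled APC library 1. No called gene changed direction. With only the groups compared, 0 genes of the whole table were called between labels in APCs, beside 1396. Deviations of same-numbered FIP and APC libraries correlated weakly, at r of 0.0592 to 0.333 under the transgenic label (mean 0.168, beside −0.0427 for other numbers) and 0.0364 to 0.269 in controls (mean 0.143, beside −0.0355). Not every pair passed 0.1, so the numbers were not taken as pairs, although they may mark shared mice. Between genotypes, the mean r of same-numbered libraries lay between −0.0669 (transgenic-labelled FIPs with control APCs) and 0.0491 (transgenic-labelled FIPs with control FIPs). The count with the replicate block is therefore not a check on shared mice. Of 5 transgenic-labelled FIP libraries 2 correlated best with their own number, and of 5 control FIP libraries 3 did. Low levels limit Hoxa10, Hoxb9 and Hoxd4, which rest on few reads per library. The causes of these shifts were not tested.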
